A study of Mus musculus with 4 samples.

Results

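Sinusoidal endothelial cells of recovering mouse liver were examined in the library of negative non-parenchymal cells, where 2061 of 2818 kept cells (73.1%, exact Clopper-Pearson 95% interval 71.5 to 74.8%) met the definition. Over the 3 libraries with counts, 10215 cells were kept. A cell was kept with at least 1000 unique molecular identifiers (UMIs, each standing for 1 captured transcript molecule), 300 genes and at most 20% mitochondrial UMIs. It was called sinusoidal when Clec4g, Stab2, Dnase1l3, Gpr182, Kdr and Ptprb together reached 30 UMIs per 10000. It also had to stay below limits for mesothelial genes (Msln, Upk3b, Nkain4 and Lrrn4, 10 per 10000), duct genes (Spp1, Tm4sf4 and Epcam, 30 per 10000), vascular genes (Vwf, Ly6c1 and Adgrg6, 15 per 10000) and central vein genes (Rspo3 and Wnt9b, 3 UMIs). All of these values chose the cells, so they describe the choice and support nothing.

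The study followed non-alcoholic steatohepatitis and its resolution in mice of the genotype labelled Col1a2-CreERT2 with an R26RtdTomato reporter, used to enrich Col1a2 positive myofibroblasts. The labels call each library positive or negative without naming the marker. The genotype field itself runs upward by library, with R29RtdTomato for the negative recovery and R28RtdTomato for the negative injury library, while the design text names R26RtdTomato. Injury was induced with a diet lacking methionine and choline (MCDHF), joined to 45% fat and drinking water with 0.1% L-methionine, for 8 weeks. The time of recovery after it is not stated in the labels. The libraries were negative recovery, positive recovery and negative injury, 1 of each, and positive injury, whose counts were not analysed here. All animals carried the reporter alleles, and no undieted control, strain background, sex, age or number of pooled animals is given. Sinusoidal endothelial cells were selected here from the negative fractions after Pronase, Collagenase and a Nycodenz gradient, so their share describes the preparation and not the liver.

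Liver sinusoidal endothelial cells line the capillaries that run from the portal tract to the central vein. They are fenestrated, lack an organised basement membrane, and clear macromolecules from blood through scavenger receptors. Along the sinusoid, oxygen, Wnt and Notch signals differ, and the cells near the central vein are known as a source of Wnt ligands such as Wnt2, whereas those near the portal tract are known for Notch ligands and Efnb2.

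The sinusoidal cells held 17077494 of the library's 27816768 UMIs, with a median of 8345 UMIs and 3245 genes per cell and a median of 5.32% mitochondrial UMIs. The same definition found 3203 of 5271 cells (60.8%) in negative injury, at a median of 5947 UMIs, and 145 of 2126 cells (6.82%) in positive recovery, at a median of 8889 UMIs. With 1 library per group there is no replicate error: values are sums over cells scaled to a common total of counts (CPM), intervals are 95% and cover counting error only, and no test was made. Between libraries 3 to 9 cell barcodes were shared, 3 of them between negative recovery and negative injury. The defining sum had a median of 185 per 10000 in the sinusoidal cells and a minimum of 33.9. Just outside the limit, 6 kept cells lay between 25 and 30 per 10000, and 4 sinusoidal cells lay between 30 and 35. Near the other limits, 22 sinusoidal cells had 2 Rspo3 or Wnt9b UMIs and 10 central vein cells had exactly 3. On the vascular sum, 19 sinusoidal cells lay between 10 and 15 per 10000 and 29 vascular cells between 15 and 20.

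The sinusoidal cells carried the receptor set of this cell type beyond the genes that chose them. Ehd3 (ENSMUSG00000024065, chr17:73804134-73832094, plus strand, mm10), an endocytic recycling protein, was at 4129 CPM (4098 to 4159) in the sinusoidal cells, against 2741 CPM in central vein cells, 1028 CPM in vascular cells and 20.6 CPM in duct cells of the same library. Here central vein cells are 106 cells with the sinusoidal sum and at least 3 Rspo3 or Wnt9b UMIs. Vascular cells are 105 cells over the vascular limit, which did not have to reach the sinusoidal sum. Duct cells are 395 cells over the duct limit whose sinusoidal sum lay under its limit. That choice leaves out duct cells with much sinusoidal RNA, so their levels of sinusoidal genes are partly set by it. The mannose receptor Mrc1 was at 1821 CPM in the sinusoidal cells, against 806 CPM in central vein, 130 CPM in vascular and 8.69 CPM in duct cells. The inhibitory Fc receptor Fcgr2b, which clears immune complexes, was at 2490 CPM in the sinusoidal cells, against 1050 CPM, 257 CPM and 13.6 CPM in the same 3 sets. The values fell into the same order for all 3 genes, with sinusoidal cells highest.

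Among the other endocytic receptors, Stab1, a scavenger receptor, was at 1195 CPM in the sinusoidal cells and 778 CPM in central vein cells. Oit3 was at 1115 and 537 CPM in the same order, and Lyve1 (ENSMUSG00000030787, chr7:110850607-110863239, minus strand), a hyaluronan receptor, at 495 (484 to 506) and 49.1 (36.9 to 64.1) CPM. The transcription factors of the sinusoidal programme were present as well: Maf was at 2878 CPM and Gata4 at 253 CPM in the sinusoidal cells, against 318 and 73.8 CPM over the 757 other kept cells of the library. Gata4 did not set the endothelial sets apart, with 264 CPM in central vein and 246 CPM in vascular cells. F8, the gene of coagulation factor VIII, was at 888 CPM in the sinusoidal cells and 158 CPM in the other kept cells, and Gpihbp1, which holds lipoprotein lipase on capillary walls, at 2765 and 359 CPM. Bmp2, which drives hepcidin in hepatocytes, was at 1896 CPM in the sinusoidal cells and 198 CPM in the other kept cells. Wnt2 was listed as a marker but behaved otherwise: it was at 279 CPM (271 to 287) in the sinusoidal cells, against 892 CPM in central vein and 489 CPM in vascular cells.

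**Figure D1:**
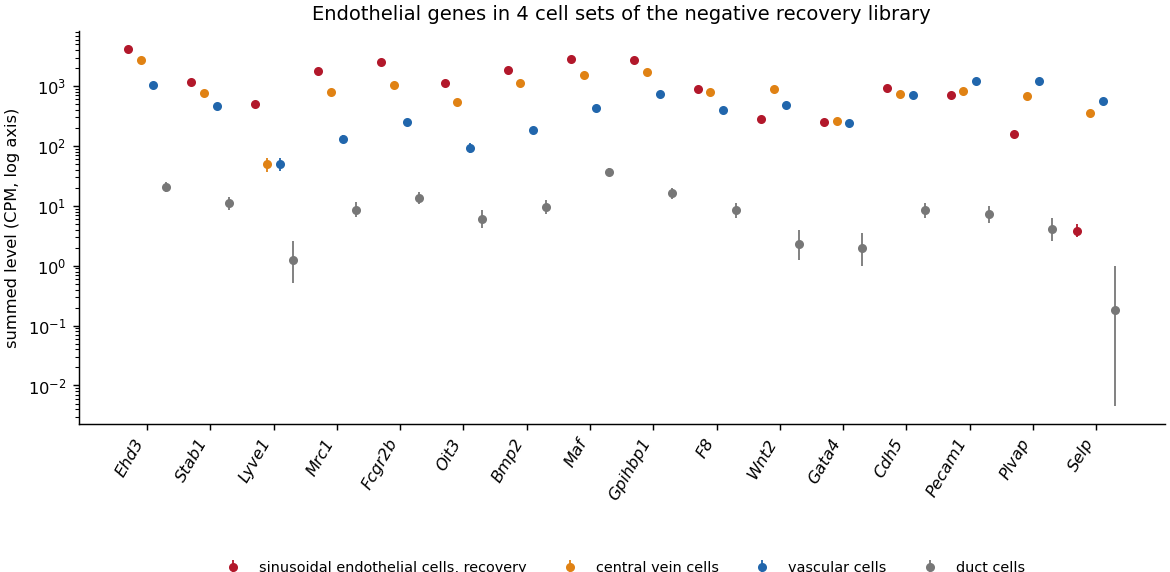
Summed levels in CPM (log axis) of 16 endothelial genes in sinusoidal, central vein, vascular and duct cells of the negative recovery library; bars are exact Poisson 95% intervals. Sinusoidal cells are highest for Ehd3, Mrc1, Fcgr2b and Lyve1 and lowest of the 3 endothelial sets for Wnt2, Plvap and Selp.

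The share of cells with a UMI was read after thinning each cell to 2000 UMIs, which left out 44 sinusoidal cells. Mrc1 was then found in 1916 of 2017 sinusoidal cells (93.9 to 95.9%), Lyve1 in 43.8% and Wnt2 in 37.1%. In duct cells, which should lack these genes, the shares were 0.260% for Mrc1, 0.519% for Lyve1 and 0.260% for Wnt2, at an unthinned median of 11340 UMIs. These duct cells were chosen in part for a low sinusoidal sum. Without thinning, Mrc1 was in 99.3%, Lyve1 in 69.5% and Wnt2 in 66.4% of sinusoidal cells at a median of 8345 UMIs, and in 8.86%, 1.77% and 2.53% of duct cells.

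Markers of other cell types were low in the sinusoidal cells. The 10 Kupffer cell markers summed to 22.4 CPM, with Timd4 and Adgre1 at 0, and the 10 lymphocyte markers to 1.99 CPM, with 5 of them at 0. The 11 stellate and fibroblast markers summed to 46.6 CPM in the sinusoidal cells and 1830 CPM in the other kept cells, and the 13 hepatocyte markers to 201 and 6207 CPM. Albumin (Alb) was the highest hepatocyte marker, at 72.9 CPM in the sinusoidal cells and 2892 CPM in the other kept cells. Of the lymphatic markers, Flt4 and Lyve1 are shared with sinusoids, whereas Prox1 was at 3.34 CPM, Pdpn at 0.176 CPM and Ccl21a at 0. MHC class II genes were at most 4.45 CPM (Cd74). Of 10 cycling genes, 153 of 2061 sinusoidal cells (7.42%) held any UMI and 0 held 5 or more, which allows a share of up to 0.146%; in injury these were 303 and 17 of 3203 cells.

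Zonal position was read from 9 anchor genes. The central anchors were Wnt2, the receptor tyrosine kinase Kit, thrombomodulin (Thbd) and the cadherin Cdh13, and the portal anchors were Efnb2, the Notch ligand Dll4, the scavenger receptor Msr1, the matrix protein Ltbp4 and the netrin Ntn4. The 1886 cells with at least 4000 UMIs were thinned to 4000 and ordered by the difference of the 2 anchor sums, each over its mean, and split into 5 bins of equal size, from 1 (most portal) to 5 (most central). The order is a statistical one, since the data hold no positions in tissue, and 368 cells (19.5%) lay within 0.1 of a boundary between bins. Depth hardly differed along it, with median UMIs of 8332 to 8768 per bin. Each anchor was read in an order built without it.

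The cells spread over a range of anchor sums, and with this few UMIs per cell whether they form separate groups was not tested. At 4000 UMIs a cell held a mean of 3.49 central and 7.36 portal anchor UMIs, and 327 cells held 0 central, 54 held 0 portal and 1 held neither. Over the 1886 cells the correlation of the 2 sums was -0.41 (Pearson, a description over cells of 1 library that share depth by construction). Their variance over the mean, the Fano factor that equals 1 for pure counting noise, was 3.19 for the central and 3.55 for the portal sum.

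**Figure D2:**
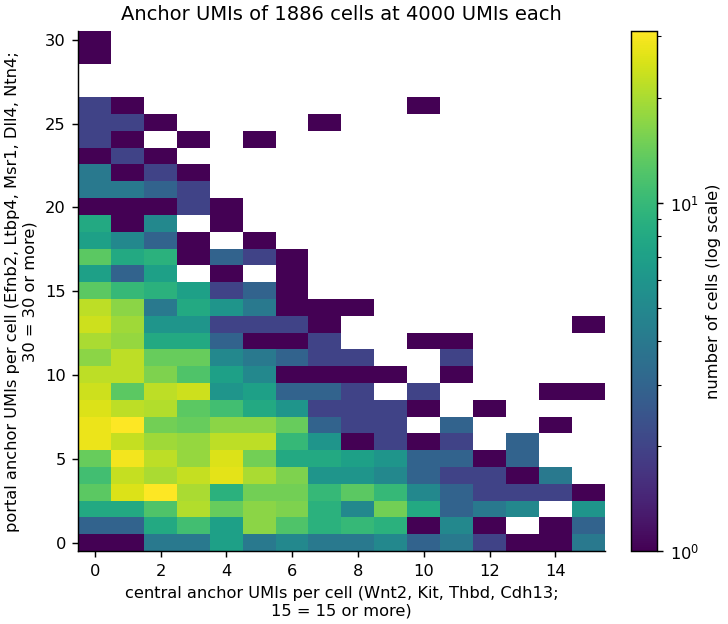
Number of sinusoidal cells (colour, log scale) by central anchor UMIs (x axis) and portal anchor UMIs (y axis) at 4000 UMIs each. The cells lie along a bend from many portal and few central UMIs to the reverse, and 327 of 1886 cells hold 0 central UMIs.

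The central anchors climbed along orders built without them. Wnt2 (ENSMUSG00000010797, chr6:17988940-18030585, minus strand) was at 85.3, 169, 252, 338 and 538 CPM from the most portal to the most central bin, and Kit (chr5:75574916-75656722, plus strand) at 74.1, 142, 205, 315 and 522 CPM. Cdh13 was at 235 CPM in the most central and 31.4 CPM in the most portal bin, while Thbd spread less, at 352 and 180 CPM. At the other end, Msr1 was at 501, 331, 211, 134 and 66.6 CPM from portal to central, the steepest of the portal anchors with a log2 ratio of central over portal bin of -2.74 (counting standard error 0.10). Dll4 (chr2:119325784-119335962, plus strand) was at 52.3 CPM in the most central and 203 CPM in the most portal bin, Efnb2 at 53.3 and 203 CPM, Ntn4 at 246 and 931 CPM, and Ltbp4 at 495 and 1156 CPM. All 4 central anchors were ordered upward and all 5 portal anchors downward over the 5 bins.

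Genes that played no part in the order were read from a pair of lists known from other work on sinusoids. The lists were chosen with earlier results of these data known. The central list holds Rspo3 and Wnt9b, which the definition limits to under 3 UMIs and which had log2 ratios of 0.80 and 0.95. Of the 8 genes of the central list, 5 were at least 2-fold higher in the central than in the portal bin and none lower, with a median log2 ratio of 1.34 (10 CPM added to each level). Over all 6642 genes tested, anchors left out and with at least 20 CPM in the cells, 0.391% were 2-fold or more higher and 0.497% lower; the list counts include members below 20 CPM. Lhx6, a homeobox factor, was near absent at the portal end, at 0.305, 0.923, 2.12, 7.81 and 40.3 CPM from portal to central. The small GTPase Rab3b was at 84.8 CPM in the central and 13.7 CPM in the portal bin, the cyclooxygenase Ptgs1 at 454 and 157 CPM, the lipid phosphatase Plpp1 at 1491 and 581 CPM, and Dkk3 at 60.1 and 18.0 CPM. Fabp4 did not follow the list: it was at 1202, 867, 769, 906 and 1068 CPM from portal to central, lowest in the middle bin.

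Of the 8 genes of the portal list, 3 were at least 2-fold higher in the portal bin, with a list median of -0.71. Mecom, a transcription factor of arterial endothelium, was at 20.7 CPM in the central and 145 CPM in the portal bin, the ephrin Efnb1 at 167 and 743 CPM, and the Notch ligand Jag1 at 18.3 and 72.8 CPM. Adam23 (799 and 1278 CPM), Sox17 (84.2 and 148 CPM), Cd36 (559 and 866 CPM) and Il1a (112 and 161 CPM) lay the same way without reaching 2-fold, and Hey1 was at 0.902 and 4.27 CPM.

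Of 6 genes that other work has placed mid-lobule, 3 were highest in the middle bin. The share of all genes highest there was not counted. Lyve1 was at 471, 500, 592, 550 and 383 CPM from portal to central. Ctsl was at 1486, 1655, 1804, 1744 and 1665 CPM in the same order, and Fcgr2b at 2215, 2593, 2678, 2533 and 2447 CPM. Their middle bins thus lay close to a neighbouring bin. In injury cells ordered in the same way, Lyve1 (1921 CPM) and Ctsl (4569 CPM) were highest in bin 2. Fcgr2b was highest in bin 1 there, at 2085 CPM. Mrc1 was highest in the most central bin, at 1894 CPM. Stab2 climbed from end to end, at 1044, 1244, 1444, 1481 and 1647 CPM. Clec4g varied little, at 3244 CPM in the most portal bin and 3735 to 3794 CPM in the other 4. Stab2 and Clec4g belong to the sum that chose the cells.

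**Figure D3:**
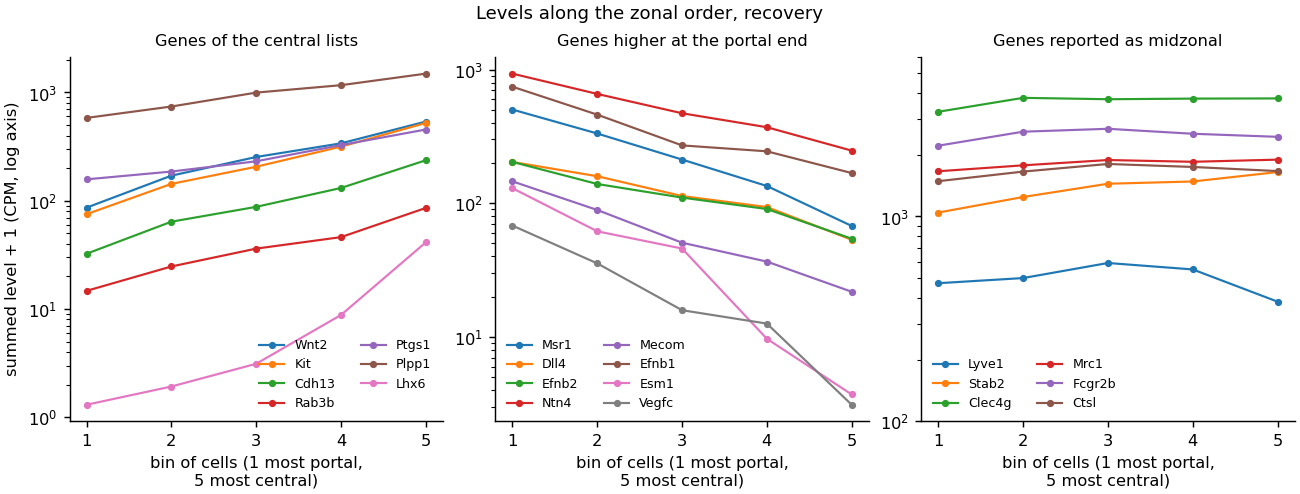
Summed level plus 1 in CPM (log axes) over the 5 bins of 1886 cells from most portal (1) to most central (5). Wnt2, Kit and Lhx6 climb toward the central end, Msr1, Esm1 and Vegfc toward the portal end, and Lyve1 peaks in the middle bin at 592 CPM.

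Beyond the lists, the genes with the widest central excess were Ifitm10 (52.6 CPM in the central and 4.27 CPM in the portal bin), the junction protein plakoglobin, Jup (99.5 and 16.1 CPM), the galectin Lgals1 (486 and 111 CPM), the leukotriene synthase Ltc4s (76.4 and 14.0 CPM) and the Notch-modifying glycosyltransferase Lfng (49.6 and 10.1 CPM). Rnase4, Slco3a1, Pmp22, the chemokine scavenger Ackr4, Il13ra2 and Celf4 were also among the 12 widest, at log2 ratios of 1.57 to 1.24. The widest portal excess was in Esm1 (chr13:113209659-113218098, plus strand), the proteoglycan endocan of endothelial tip cells, at 129, 60.6, 44.8, 8.68 and 2.71 CPM from portal to central. Vegfc, a growth factor of lymphatic endothelium, was at 2.10 CPM in the central and 67.0 CPM in the portal bin. Also in the 12 widest were Igfbp5, Ednrb (endothelin receptor B), Ctgf, Edn1 (endothelin), Ly6a, Hmcn1, Cd34, Galnt15, Angpt2 and Sept4, at log2 ratios of -2.36 to -1.39. By a Pearson correlation over the 5 bins, which share one library, the patterns most like Wnt2 were those of Plxnc1, Adarb1, Slc29a1, Plpp1 and Egfl7.

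Vascular genes moved with part of the portal end. Of the 6 vascular-list genes tested, 4 were at least 2-fold higher in the portal bin: Adgrg6, which belongs to the defining vascular sum, and Ly6a, Cd34 and Efnb1. The definition itself held each sinusoidal cell under 15 per 10000 for the vascular sum, and 1827 of 2061 held 0 of it. When the order was rebuilt from cells with 0 Vwf, Ly6c1 and Adgrg6 UMIs, an alternative chosen after seeing the data, the log2 ratio of Edn1 was 0.22 against -1.84 in all cells. That of Igfbp5 was -0.32 against -2.36, and that of Jag1 -0.32 against -1.55. Ednrb had -0.74 in those cells against -2.05, no longer past 2-fold. Esm1 (-3.66), Vegfc (-1.82), Msr1 (-2.69), Dll4 (-1.78) and Mecom (-2.01) kept their portal excess in those cells. Of the vascular list, Ly6a (-1.13), Cd34 (-1.51) and Efnb1 (-1.38) also stayed past 2-fold, against -1.81, -1.69 and -2.09 in all cells.

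Pairs of genes were also read in single cells, all at 4000 UMIs. Wnt2, Kit, Msr1 and Dll4 are anchors whose UMIs built the order, so their pairs restate it. Lhx6 is not an anchor. Kit was found in 61.8% of the 1003 cells with a Wnt2 UMI (58.7 to 64.8%) and in 283 of the 883 without one (29.0 to 35.2%). Lhx6 was found in 6.38% and 0.566% of the same sets. Msr1 went the other way, with 34.8% of Wnt2-positive and 59.9% of Wnt2-negative cells. Dll4 also went the other way, with 28.2% of Wnt2-positive cells (283 cells) and 43.5% of Wnt2-negative cells.

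The zonal order was also present in the injury library, built there in the same way from 2511 cells. All 26 genes past 2-fold at the central end in recovery had the same sign in injury, 15 of them past 2-fold, and their median log2 ratio was 1.34 in recovery and 1.12 in injury. Of the 33 portal genes 31 had the same sign, 15 past 2-fold, with medians of -1.39 in recovery and -0.94 in injury. These genes were chosen for their ratios in recovery, which fixes the order of the medians, and the same sign in injury includes Edn1 at -0.004. The lists that were not chosen this way had medians of 1.34 in recovery and 1.43 in injury (central, 8 genes) and -0.71 and -0.46 (portal, 8 genes). Those lists were still chosen with earlier results of these data known. Ednrb was one of the genes with the other sign, at -2.05 in recovery and 0.87 in injury. Jag1 was at 41.5, 23.9, 19.4, 24.2 and 44.7 CPM from portal to central in injury, high at both ends, so that its log2 ratio was 0.09 there and -1.55 in recovery. In recovery cells without Vwf, Ly6c1 or Adgrg6 UMIs, Ednrb had -0.74 and Jag1 -0.32, and injury was not read that way. The orders also rest on unlike anchor counts. Injury cells held a mean of 4.71 central and 3.81 portal anchor UMIs, against 3.49 and 7.36 in recovery. Of the 5 portal anchors only Ltbp4 was 2-fold or more higher in recovery, at 810 CPM against 135 CPM in injury. It therefore made up a larger part of the portal sum in recovery. Wnt2 had nearly equal ratios, 2.52 in recovery and 2.60 in injury.

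**Figure D4:**
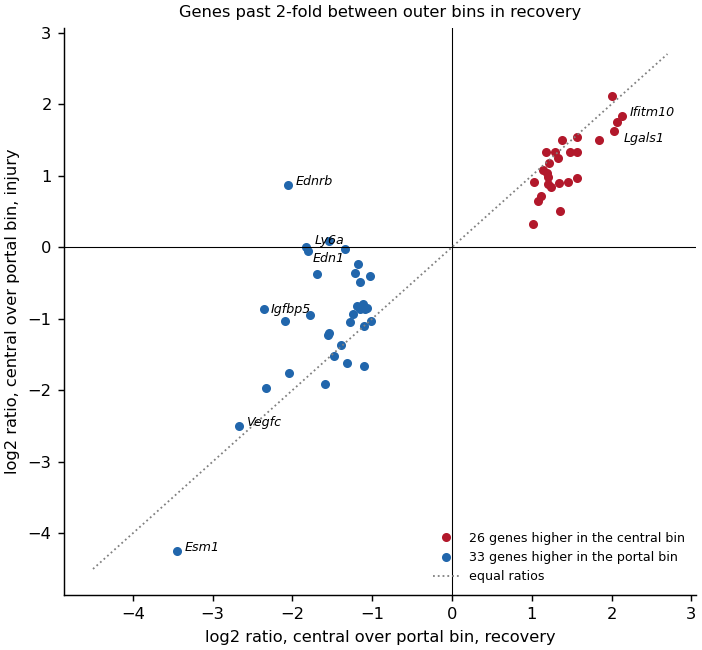
Log2 ratio of the most central over the most portal bin in recovery (x axis) and in injury (y axis) for the 59 genes past 2-fold in recovery; the dotted line marks equal ratios. The 26 central genes all lie above 0 in injury, and Ednrb stands apart at 0.87.

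The Fano factor among the sinusoidal cells was close to that of pure counting noise for most genes and large for a few. At a low mean count it stays close to that even where cells differ. It therefore does not show that most genes were even among the cells. Of 5998 genes with a mean of at least 0.1 UMI at 4000 UMIs per cell, the median Fano factor was 1.04 and 96 were over 2. The highest was Igfbp5 (20.9), of whose UMIs 86.1% lay in the top 19 cells. Ly6a (9.24), Ednrb (6.29), Ctgf (5.87) and Esm1 (4.89) were also among the highest 20, as were the adhesion molecules Icam1 (5.46) and Vcam1 (5.33), the chemokine Cxcl10 (4.91), and the immediate-early and heat-shock genes Fos, Jun, Egr1, Dusp1, Klf2, Junb, Hspa1a and Hspa1b. The last group also responds to tissue dissociation. Malat1, Fabp4, Lyve1 and Selenop made up the rest. Hspa1a and Hspa1b are near-identical copies, so the split of reads between them is uncertain.

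To show how these genes go together, cells were taken at limits set after the values were seen, with no test. The 94 cells with at least 5 Ednrb UMIs and the 57 cells with at least 5 Esm1 UMIs, both mainly portal, shared 0 cells. For the 57 cells this allows a share of up to 5.26%, which does not lie below the 4.56% of all sinusoidal cells that were Ednrb-high. Of the Ednrb-high cells, 39, 23, 8, 15 and 8 lay in bins 1 to 5, and of the Esm1-high cells 30, 14, 9, 2 and 1. Ednrb-high cells had Edn1 at 298 CPM against 9.85 CPM in the remaining sinusoidal cells, Fbln2 at 214 against 4.21 CPM, Jag1 at 190 against 21.4 CPM and Ly6a at 3268 against 559 CPM. In the Ednrb-high cells Vwf, which belongs to the definition, was at 109 against 4.83 CPM, and 61.7% held a UMI of the vascular sum against 8.95% of the rest; the part of vascular cells or mixed droplets in the set was not tested. Of the genes in the sinusoidal sum that chose the cells, Kdr was at 1594 CPM in Ednrb-high cells against 2906 CPM in the rest. Stab2, also in that sum, was at 818 against 1417 CPM.

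Other genes were high in the Esm1-high cells. Of the genes the definition limits, Vwf was at 1.89 CPM in them and 10.8 CPM in the rest, and 14.0% against 11.3% held a UMI of the vascular sum. Ctgf, a matrix protein induced by stretch, was at 716 CPM in Esm1-high cells against 79.6 CPM in the rest, the potassium channel gene Kcnj8 at 115 against 10.4 CPM, Angpt2 at 123 against 25.9 CPM, Cxcl9 at 632 against 183 CPM and Lyve1 at 1242 against 471 CPM. Kdr, of the sinusoidal sum that chose the cells, was at 2895 CPM in Esm1-high cells, close to the 2832 CPM of the rest. Dll4 was at 254 CPM in Esm1-high cells against 120 CPM in the rest, and Wnt2 at 49.2 against 286 CPM.

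A set of 116 cells with at least 6 Icam1 UMIs was spread over the order, with 22, 27, 17, 28 and 21 cells in bins 1 to 5. In it, Vcam1 was at 664 CPM against 148 CPM in the rest and Cxcl10 at 856 against 303 CPM. The inhibitors of NF-kB signalling Tnfaip3 and Tnip1 were at 148 against 41.1 CPM and 226 against 59.8 CPM. Of the Icam1-high cells 18.1% held a UMI of the vascular sum, against 11.0% of the rest, and 13 were also Ednrb-high. Vwf, which the definition limits, was at 34.2 CPM in them and 8.85 CPM in the rest. The part of vascular cells or mixed droplets in the set was not tested. The 163 cells with at least 5 Hspa1a UMIs were spread evenly, at 30 to 34 cells per bin, and had Fos at 1144 CPM against 2127 CPM in the rest.

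Against central vein cells, which share most sinusoidal genes, 104 of 7159 genes (1.45%) were 2-fold or more higher in the sinusoidal cells and 178 (2.49%) lower. With every cell thinned to 2000 UMIs the counts were 294 and 239, with few UMIs per gene over the 105 central vein cells left. Rspo3 and Wnt9b set these groups apart, so what follows is a description of the neighbours of the cut. Portal anchors were all higher in sinusoidal cells (5 of 5, median 1.73) and central anchors all lower (4 of 4, median -1.85). Of 14 scavenger and endocytic genes tested, 6 were higher and none lower. Of 7 leukocyte adhesion genes 4 were lower and 0 higher, of 10 capillary genes 1 was lower and 3 were higher, and of 6 vascular genes 2 were lower and 1 higher. Among the lower genes, Selp (P-selectin, which captures leukocytes) was at 3.86 CPM in the sinusoidal and 357 CPM in central vein cells, Bmp4 at 1.35 and 292 CPM, Edn1 at 25.6 and 348 CPM, and Plvap, of fenestral diaphragms, at 161 and 680 CPM. Tox2 had 473 counts in the sinusoidal cells and 0 in central vein cells, at least 10.1-fold higher against a floor of 3 counts over the central vein group.

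The vascular cells also carried the central vein genes, with Rspo3 at 4330 CPM and Wnt9b at 382 CPM, against 3262 and 223 CPM in the central vein cells, so the sets are not separate on those genes. Against vascular cells 472 of 7292 genes (6.47%) were higher in the sinusoidal cells and 434 (5.95%) lower. With every cell thinned to 2000 UMIs the counts were 773 and 506, with few UMIs per gene over the 104 vascular cells left. Of 10 sinusoidal identity genes tested outside the definition, 8 were higher (median 2.90). Mrc1 led (1821 and 130 CPM), followed by Oit3 (1115 and 93.1 CPM), with Wnt2 the lowest (279 and 489 CPM). Vascular cells did not have to reach the sinusoidal sum, so genes that go with that sum are partly set apart by the choice. Adam23 was at 1068 CPM in the sinusoidal cells and 45.4 CPM in vascular cells, Gatm at 859 and 50.8 CPM, and the iron exporter Slc40a1 at 202 and 10.2 CPM. Lower in the sinusoidal cells were Bmp4 (1.35 and 619 CPM), Edn1 (25.6 and 1548 CPM), and Eln (elastin, 3.28 and 413 CPM). Sprr2b had 0 counts in the sinusoidal and 265 in vascular cells, at least 1180-fold lower against the floor of 3 counts over the sinusoidal group.

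The recovery cells differed most from injury cells of the same definition by low inflammatory genes. Of 6874 genes, 65 (0.946%) were 2-fold or more higher in recovery and 228 (3.32%) lower. The median log2 ratio of all genes was 0.18, and scaling by the median of ratios or by TMM moves each ratio down by 0.20 or 0.19, so ratios are best read against that shift; the split became 31 higher and 294 lower, or 33 and 292. Of 15 interferon response genes 14 were lower, with a list median of -2.14. Irf7 (chr7:141262706-141266481, minus strand), the factor that amplifies interferon signalling, was at 19.6 CPM (17.6 to 21.8) in recovery and 573 CPM (562 to 583) in injury. Rsad2 (viperin) was at 53.1 and 1083 CPM, Isg15 at 31.3 and 471 CPM, and Ifit1 at 21.4 and 466 CPM. Ifit3 (21.8 and 568 CPM) and Ifit3b (12.5 and 255 CPM) are near-identical copies and are uncertain as a pair. The 1 gene not past 2-fold was Bst2, at 845 CPM in recovery and 1531 CPM in injury. The difference was not limited to these cells: in all other kept cells Irf7 was at 23.4 CPM in the recovery and 569 CPM in the injury library.

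The upstream sequences of 3 of these genes are shown because they carry the letters of an interferon-stimulated response element, the motif bound by IRF and STAT complexes. RefSeq promoter sequences (GRCm38.p6) were found for 11 of the 15 list genes, and the letters GAAA, then 2 bases of any kind, then GAAA were searched on both strands, overlaps allowed, in the 250 bases before each start. It was found in 6 of the 11 and in 823 of all 27025 promoters of that length (3.05%). Capitals mark it or its reverse complement; a match is a description and not a bound site. The windows are chr19:34640639-34640888 (plus strand) for Ifit1 with 2 matches, chr12:26456453-26456702 (minus strand) for Rsad2 with 1, and chr4:156200819-156201068 (minus strand) for Isg15 with 3 that overlap.
Ifit1: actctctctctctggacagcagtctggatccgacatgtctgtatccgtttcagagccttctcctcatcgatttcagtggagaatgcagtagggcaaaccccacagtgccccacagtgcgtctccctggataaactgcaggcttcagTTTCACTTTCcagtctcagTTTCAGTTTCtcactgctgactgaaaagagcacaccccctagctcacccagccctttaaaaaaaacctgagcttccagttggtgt
Rsad2: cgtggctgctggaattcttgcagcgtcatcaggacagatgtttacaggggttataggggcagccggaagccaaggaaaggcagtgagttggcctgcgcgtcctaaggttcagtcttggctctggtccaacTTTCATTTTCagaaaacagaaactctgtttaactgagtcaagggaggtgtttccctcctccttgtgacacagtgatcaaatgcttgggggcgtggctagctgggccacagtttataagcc
Isg15: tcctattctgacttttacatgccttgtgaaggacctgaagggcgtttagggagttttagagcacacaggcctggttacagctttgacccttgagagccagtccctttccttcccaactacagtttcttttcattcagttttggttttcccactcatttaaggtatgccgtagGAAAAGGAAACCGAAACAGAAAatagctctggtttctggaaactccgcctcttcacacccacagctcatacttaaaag

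Chemokines and adhesion molecules were lower too. Of 7 chemokine genes tested 5 were lower and 1 higher (median -1.66): Cxcl10 was at 340 CPM in recovery and 2926 CPM in injury, Cxcl9 at 197 and 839 CPM, and Ccl2 at 8.49 and 125 CPM, whereas Ackr4 was at 33.8 and 7.12 CPM. Of 7 adhesion genes 4 were lower (median -1.64): Selp was at 3.86 CPM in recovery and 225 CPM in injury, Icam1 at 191 and 617 CPM, Vcam1 at 183 and 665 CPM, and E-selectin (Sele) at 7.26 and 58.4 CPM. In injury 1128 of 3203 cells (35.2%) held a Selp UMI. Against injury cells with 0 Selp UMIs, a choice that takes Selp itself out of the lower genes, 3 of the 7 adhesion genes were lower. All 15 interferon genes were lower against those cells (median -2.32). Icam2 and Cxcl16, at 265 and 252 CPM in recovery, were at 207 and 217 CPM in injury.

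The differences in sinusoidal function genes were smaller. Of 14 scavenger and endocytic genes 0 were higher and 2 lower: Lyve1, at 495 CPM in recovery and 1723 CPM in injury, and the protease Ctsl, at 1673 and 4040 CPM. Lyve1 was found at 2000 UMIs in 43.8% of recovery and 82.3% of injury cells, and without thinning in 69.5% and 90.1%. In the BMP list 2 of 11 were higher and none lower (median 0.61), namely the BMP target genes Id3 (1178 and 469 CPM) and Id1 (230 and 94.0 CPM). None of 9 Notch genes passed 2-fold (median 0.12), and of 12 angiocrine genes only Inhbb was lower (56.9 and 331 CPM). Of 11 shear and nitric oxide genes 2 were lower, Ednrb (102 and 396 CPM) and thrombomodulin, Thbd (238 and 581 CPM). In the lipid list Abca1, the cholesterol exporter, was lower, at 33.3 CPM in recovery and 199 CPM in injury.

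**Figure D5:**
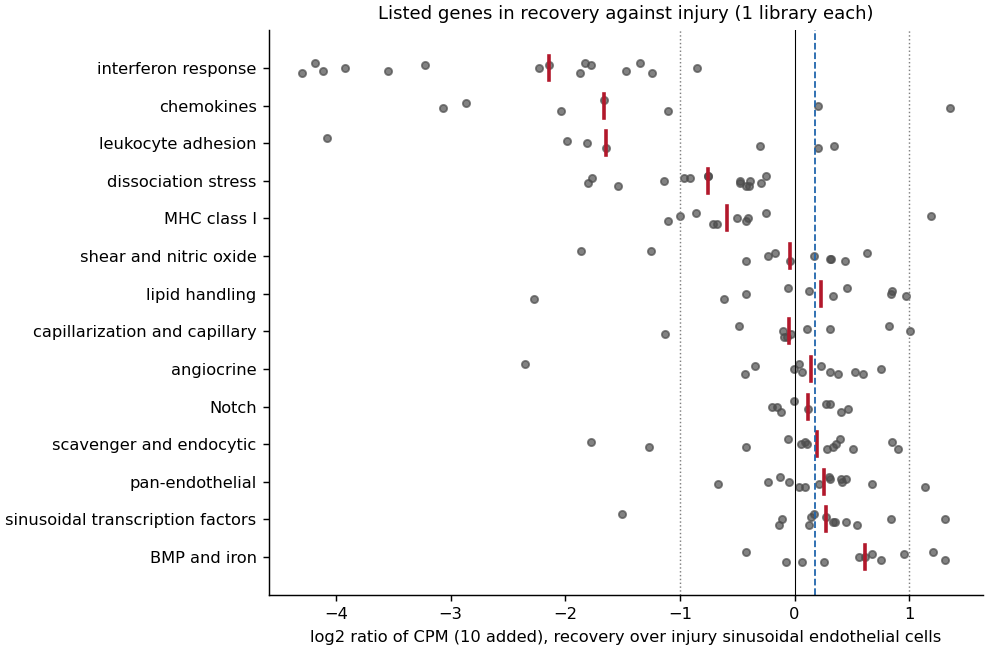
Log2 ratio of recovery over injury sinusoidal cells (x axis, 1 library each, 10 CPM added) for each gene tested in 14 lists; red bars are list medians, the dashed line the median of all genes (0.18), dotted lines 2-fold. Interferon genes lie lowest (median -2.14) and BMP genes highest (median 0.61).

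Genes other than these lists led the higher end. Ltbp4 (chr7:27305136-27337692, minus strand), a latent TGF-beta binding protein, was at 810 CPM (797 to 824) in recovery and 135 CPM (130 to 140) in injury. Prelp was at 91.4 and 13.5 CPM, Wisp1 at 58.6 and 10.2 CPM, Pde2a at 84.5 and 21.1 CPM, and the peptidase Enpep at 210 and 73.1 CPM. Rnaset2b, which has a near-identical copy, was at 54.4 and 1.70 CPM. Some of these gaps belonged to the whole library. In all other kept cells Ltbp4 was at 340 CPM in recovery and 86.1 CPM in injury, and Rnaset2b at 81.1 and 3.46 CPM. Pde2a was at 25.5 and 3.52 CPM in those other cells, Enpep at 28.4 and 10.1 CPM, and Wisp1 at 3.95 and 1.23 CPM. Prelp was at 147 and 93.2 CPM in them. Rab6b was at 34.0 and 3.46 CPM there, next to 22.8 and 1.03 CPM in the sinusoidal cells. Ctsj, a cathepsin, had 0 counts in the recovery and 2159 in the injury cells, at least 634-fold lower against 3 counts over the recovery cells, and also 0 counts in every other kept cell of both recovery libraries. Stage, animals, whose strain background is not given, and library cannot be told apart here.

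Other-cell RNA and dissociation genes moved in the same direction. The hepatocyte list summed to 201 CPM in recovery and 328 CPM in injury (0 of 13 genes at 0 in either), the Kupffer list to 22.4 and 115 CPM (2 and 0 of 10 at 0) and the stellate list to 46.6 and 83.8 CPM. Of 15 dissociation stress genes 4 were 2-fold or more lower in recovery, with a median of -0.75; Egr1 was at 779 CPM in recovery and 2277 CPM in injury. Their part in the other differences was not tested.

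The same definition in the positive recovery library gave 145 cells whose sinusoidal genes were close in level. Of 6955 genes, 4 (0.0575%) were 2-fold or more higher in the negative cells and 82 (1.18%) lower. Of 10 sinusoidal identity genes 0 passed in either direction (median 0.04). With every cell thinned to 2000 UMIs the counts were 85 and 78. That left 135 positive cells, so genes near 20 CPM then rested on few counts. Lyve1 was at 495 CPM in the negative and 483 CPM (446 to 522) in the positive cells, Mrc1 at 1821 and 1863 CPM, and Bmp2 at 1896 and 2063 CPM. Irf7, at 19.6 and 21.4 CPM, was low in both. The 4 genes higher in negative cells were Edn1 (25.6 and 4.58 CPM), Gstp1 (47.7 and 16.8 CPM), Ly6a (708 and 324 CPM) and Gm14226 (28.6 and 6.87 CPM), a predicted gene named here after its values were seen. Lower ones were led by other-cell markers: Dcn of stellate cells was at 20.7 CPM in the negative and 1225 CPM in the positive cells, Cxcl12 at 6.32 and 257 CPM, and the Kupffer gene Cd5l at 0.234 and 74.8 CPM. The stellate list was lower in 9 of 9 genes tested and summed to 46.6 CPM in the negative and 1787 CPM in the positive cells, and the part of mixed droplets or free RNA was not tested.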

How the data were processed

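Negative recovery, negative injury and positive recovery libraries (10x 3' v2, 1 each) were read from the deposited matrices of UMI counts, whole numbers per gene and barcode that the authors did not normalise. The matrices were written with software 3.1.0, per the file headers; mm10, GRCh38 and featureCounts 1.6.2 are named in the submitters' processing notes. Cell calling is not given in the sources used here. Of 31053 feature IDs, 30934 were found in GENCODE M21 (mm10), which gave gene coordinates.

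Counts were summed over cells and divided by the summed total (CPM). Intervals are exact Poisson or Clopper-Pearson at 95%. Log2 ratios had 10 CPM added, for genes with at least 20 CPM in either group, and 2-fold was the limit for counting a gene. Zonal scores, Fano factors and shares used cells thinned at random to 4000 or 2000 UMIs (seed 7). Scripts were tested on simulated data. Tools were Python 3.11.15, numpy 2.4.6, scipy 1.17.1 and scanpy 1.11.5. Named genes are the 12 widest in each direction (predicted, ribosomal, mitochondrial and defining genes left out), all anchors and list genes by count with examples, and the 20 highest Fano factors. Members and lists were chosen with earlier results of these data known. Scrublet called 4 of 2818 cells (0.142%) in negative recovery and 14 (0.266%) in negative injury, so it did not work there; doublets were not removed, and removing the 64 highest scores, 39 of them sinusoidal, was an alternative. Sampling of cells from separate animals is not given. One gene that the naming rule picks is not reported here.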

Additional observations from a re-analysis of the deposited data

How the results depend on the processing

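No paired analysis was possible because each group is 1 library, and for the same reason no replicate could be left out. Of 114 values for lists and counts of genes under an alternative, 89 stayed within their limit and 25 moved. Single genes did change direction: without the cells holding Vwf, Ly6c1 or Adgrg6 UMIs, the log2 ratio of central over portal bin was 0.22 for Edn1 and 0.40 for Fabp4, against -1.84 and -0.17 in all cells. The zonal counts depended on how the order was made, against 26 central and 33 portal genes: 3 groups of cells gave 13 and 19, 10 groups gave 44 and 53, the list genes used as anchors gave 16 and 11, and a 50 CPM filter gave 13 and 17. No limit on Rspo3 and Wnt9b gave 46 central genes and list medians of 2.0 (central) and -1.0 (portal). No CPM filter gave 52 portal genes, and cells with 0 Vwf, Ly6c1 and Adgrg6 UMIs, an alternative added after seeing the data, gave 20. With the list genes as anchors, all 22 of the central genes that could be read and 28 of 30 portal genes kept their sign, 9 and 6 of them past 2-fold.

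Against injury, the 65 higher genes became 31 with median-of-ratios scaling, 33 with TMM and 39 with 20 CPM added, and in both scalings 15 of 15 interferon genes were lower. Against central vein cells the 104 higher genes became 65 with 20 CPM added and 294 with every cell thinned to 2000 UMIs, where 239 were lower. Against vascular cells a 50 CPM filter gave 279 lower and thinning 773 higher. Against positive recovery cells, 20 CPM added or a 50 CPM filter gave 1 higher gene each and thinning 85 higher and 78 lower. A 50 CPM filter gave 39 lower there and no filter 135. Thinning leaves small totals in the central vein, vascular and positive recovery sets, so its counts also reflect sampling of few UMIs per gene.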
